A study of Mus musculus with 18 samples.

Results

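The 7 genes Kcnk1, Kcnk2, Kcnk3, Kcnk12, Kcnk13, Kcnk16 and Kcnk18 encode potassium channels of the two-pore domain family and were followed through RNA sequencing of mouse dorsal root ganglia, which house the cell bodies of the sensory neurons of limbs and trunk. They were found in the count table by matching each row's Ensembl identifier to its gene symbol, and all 7 were present among 21288 genes and passed the filter on low counts. The libraries came from mice lacking importin alpha3 (KO), a nuclear import receptor encoded by Kpna4, and from wild-type mice (WT). Ganglia were taken from uninjured (naive) mice, 7 d after spared nerve injury (SNI, a partial cut of the sciatic nerve that spares one of its branches) or 2.5 months after SNI. There were 4 naive KO and 4 naive WT libraries, 3 KO and 3 WT libraries at 7 d, and 3 KO libraries and 1 WT library at 2.5 months. The KO libraries of all times carry the same deletion, no group is labelled as sham-operated, and the labels used here give no age, sex or strain. The labels do not say whether each library is a separate animal, so the p-values reflect library-to-library spread, which may be technical.

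Two-pore channels are built from subunits that each carry a pair of pore-forming segments and assemble as dimers. They pass a background potassium current that holds the membrane potential of a resting cell near the potassium equilibrium, so that in sensory neurons they set how easily a stimulus triggers firing. The members fall into several subfamilies. Kcnk1 encodes TWIK-1, a weakly rectifying channel with small currents. Kcnk2 encodes TREK-1, opened by stretch, heat and lipids. Kcnk3 encodes TASK-1, closed by extracellular acid. Kcnk13 and Kcnk12 encode THIK-1, closed by halothane, and its largely silent relative THIK-2. Kcnk16 encodes TALK-1, opened by alkaline pH and best known from pancreatic islet cells. Kcnk18 encodes TRESK, opened by the calcium-dependent phosphatase calcineurin and a major background channel of sensory neurons.

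Total counts ranged from 12565448 to 21585680 per library. They were 12565448 to 14157742 in 7 d libraries, 15501075 to 19283086 in 2.5-month libraries and 18634506 to 21585680 in naive libraries. Depth thus went with time after injury: every 7 d library was shallower than every naive library. The labels name no batch, so injury cannot be told apart from depth or from a separate preparation of the libraries. Kpna4 was at 1.01 to 5.63 CPM (counts divided by the scaled library total, expressed as a rate) in the KO libraries and at 89.6 to 136 CPM in the WT libraries. All 11 listed sensory neuron markers were counted in every library, with a summed level of 10024 to 18194 CPM. The naive KO library ko_40 had the lowest of these sums and 12.3% of its counts on mitochondrial genes.

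The windows before the start of 2 members are shown, that of Kcnk16 because this gene had the largest change after injury, and 1 window of Kcnk2 because it holds the only match to an AP-1 motif among the members. AP-1 is the dimer that c-Fos forms with Jun proteins, and the series' design text names importin alpha3 and cFOS together. Both are the 250 bases upstream of a RefSeq start on the minus strand of GRCm38.p6, written 5′ to 3′, and capitals mark the AP-1 match.
Kcnk16, chr14:20269270-20269519: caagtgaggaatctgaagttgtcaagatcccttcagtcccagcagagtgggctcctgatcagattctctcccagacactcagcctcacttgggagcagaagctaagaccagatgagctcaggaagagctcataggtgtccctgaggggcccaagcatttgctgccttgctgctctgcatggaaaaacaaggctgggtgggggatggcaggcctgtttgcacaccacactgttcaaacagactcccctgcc
Kcnk2, chr1:189344193-189344442: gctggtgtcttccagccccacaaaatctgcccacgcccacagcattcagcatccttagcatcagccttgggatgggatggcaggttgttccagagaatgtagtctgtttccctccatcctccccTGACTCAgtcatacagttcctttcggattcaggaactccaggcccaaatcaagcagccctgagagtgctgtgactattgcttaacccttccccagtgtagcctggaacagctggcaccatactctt
The motif TGANTCA was searched on both strands, on which it reads the same. It was present in 6.75% of the 32851 upstream windows of all genes and in 1 of 9 windows of the 6 members with an entry. Several of the 9 windows belong to Kcnk2. The Kcnk18 window and a further Kcnk2 window lie wholly within exons of their own gene (250 of 250 bases). Another Kcnk2 window holds 125 such bases, so not all 9 are untranscribed sequence. Both printed windows hold 0 such bases. The match in Kcnk2 begins at position -126 from the start, and Kcnk2 did not pass the test in any comparison. The cyclic AMP response element TGACGTCA was in 1.55% of all windows and in no member window. A match describes letters only, and occupancy was not measured.

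Injury changed Kcnk16 more than any other member. At 7 d after SNI in KO mice, Kcnk16 was at 15.9, 24.5 and 11.7 CPM, against 0.897, 4.30, 1.17 and 0.692 CPM in naive KO mice. At 7 d in WT mice it was at 8.90, 12.9 and 16.5 CPM, against 0.648, 1.90, 1.03 and 0.425 CPM in naive WT mice. Every 7 d library lay above every naive library in both genotypes. The counts behind these levels ran from 8 in the lowest library to 308 in the highest, so the naive levels rest on few reads. Kcnk16 rose by 3.29 ± 0.54 on the log2 scale (SE; 9.75-fold) in KO mice, with an adjusted p of 0.000872 by edgeR's quasi-likelihood test with Benjamini-Hochberg adjustment over 19010 genes. In WT mice it rose by 3.66 ± 0.57 (SE; 12.6-fold, edgeR adjusted p = 0.00149). The difference between both responses was -0.37 ± 0.78 on the log2 scale (interaction, edgeR adjusted p = 0.963), an estimate that ran from -0.88 to 0.58 with 1 library left out. In bulk tissue a change in the number of cells of a type and a change in RNA per cell cannot be told apart.

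The rise of Kcnk16 at 7 d kept its call when any 1 of the compared libraries was left out, with values between 2.96 (without ko_422_7d) and 4.24 (without ko_39) in KO mice and between 3.41 and 4.17 in WT mice. Genes of injured neurons moved with it. The 8 listed injury genes (Atf3, Sprr1a, Npy, Gal, Sox11, Csf1, Ecel1 and Gap43) summed to 2463 to 6614 CPM in 7 d KO libraries and 235 to 510 CPM in naive KO libraries. They summed to 1889 to 3521 CPM in 7 d WT libraries and 266 to 370 CPM in naive WT libraries. The library with the highest sum, ko_422_7d, also had the highest Kcnk16 level, and the naive library with the highest sum, ko_39, had the highest naive Kcnk16 level. Below ko_39 the order of the naive KO libraries differed: ko_40 had the lowest sum (235 CPM), but Kcnk16 was lowest in ko_95 (0.692 CPM, sum 236 CPM). In 2 other groups the order differed as well. Among naive WT libraries wt_48 had the highest sum (370 CPM), but Kcnk16 was highest in wt_44 (1.90 CPM, sum 325 CPM). Among 2.5-month KO libraries ko_362_2_5_m had the lowest sum (712 CPM), but Kcnk16 was lowest in ko_378_2_5_m (1.70 CPM, sum 746 CPM). The part of these genes' cells in the Kcnk16 result was not tested.

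By 2.5 months Kcnk16 was lower than at 7 d. It was at 3.01, 5.51 and 1.70 CPM in KO mice at 2.5 months, against 15.9, 24.5 and 11.7 CPM in KO mice at 7 d, with no overlap. The difference was -2.35 ± 0.58 on the log2 scale (SE; 0.196-fold, edgeR adjusted p = 0.0228). This call was lost without ko_420__7d (-2.41, adjusted p = 0.0697), without ko_362_2_5_m (-2.27, adjusted p = 0.0733) or without ko_378_2_5_m (-2.03, adjusted p = 0.0967). Set against naive KO mice, the 2.5-month KO level differed by 0.93 ± 0.56 (SE; edgeR adjusted p = 0.257), and the ranges overlapped only through the naive library ko_39. Without that library the difference was 1.88, with an adjusted p of 0.0514, and without ko_367_2_5_m it was 0.40 (adjusted p = 0.736). Without ko_39, ko_40 and ko_422_7d together it was 2.08 ± 0.59 (SE, adjusted p = 0.0313). Because ko_39 had the highest naive KO level, leaving it out raises this difference whatever the later level was. The pass without those libraries is therefore no evidence of a lasting rise. The single WT library at 2.5 months had 6.0 CPM and the 4 naive WT libraries had 0.425 to 1.90 CPM, a difference of 2.57 ± 0.76 (SE; edgeR adjusted p = 0.0349) in which the lone library is assumed to vary like the other groups. That call was lost without wt_28 (2.41, adjusted p = 0.0599), wt_48 (2.58, adjusted p = 0.0591) or wt_67 (2.33, adjusted p = 0.0715), and with a gene-length correction (2.27, adjusted p = 0.0907). The injury genes summed to 712 to 1008 CPM in the 2.5-month KO libraries and 1095 CPM in the 2.5-month WT library.

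Ordered by mean level, Kcnk16 was lowest in naive WT (0.999 ± 0.647 CPM, SD, n = 4), then naive KO (1.76 ± 1.70 CPM, SD, n = 4), 2.5-month KO (3.41 ± 1.94 CPM, SD, n = 3), the 2.5-month WT library (6.0 CPM), 7 d WT (12.8 ± 3.79 CPM, SD, n = 3) and 7 d KO (17.4 ± 6.49 CPM, SD, n = 3). The ranges of naive WT and naive KO overlapped, as did those of naive KO and 2.5-month KO and those of 7 d WT and 7 d KO. The single 2.5-month WT library lay above the 2.5-month KO range and below the 7 d WT range. Kcnk16 lies on chromosome 14 from 20261376 to 20269199 on the minus strand of GRCm38 and shares no exon base with another annotated gene. Of its nearest tested neighbours, Nudt13, 25498 bases away, differed by 0.42 ± 0.14 in KO mice (edgeR adjusted p = 0.0486) and 0.06 ± 0.14 in WT mice (edgeR adjusted p = 0.873), and Ecd, 50653 bases away, differed by -0.02 ± 0.11 in KO mice (edgeR adjusted p = 0.926).

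**Figure D1:**
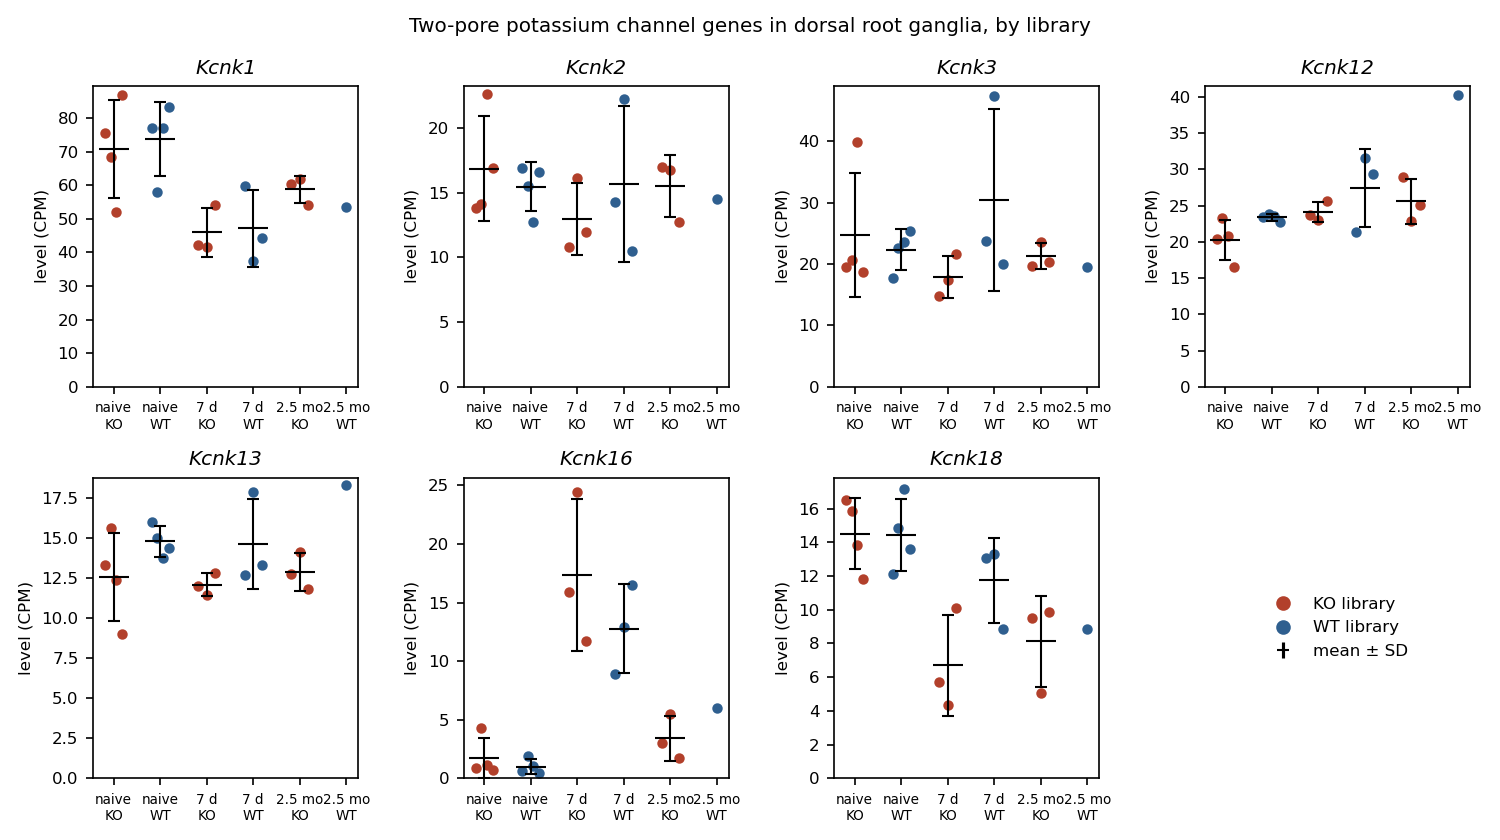
CPM of each of the 7 members in each of the 18 libraries, grouped by time after injury with KO left of WT, with the mean and SD where a group has more than 1 library. Kcnk16 stands above its naive libraries in all 6 libraries of 7 d, Kcnk18 is lower in 7 d KO libraries (4.37 to 10.1 CPM) than in naive KO libraries (11.9 to 16.5 CPM), and Kcnk3 has 1 high library in the naive KO group (39.9 CPM) and 1 in the 7 d WT group (47.4 CPM).

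Kcnk18, the TRESK gene, was lower after injury in KO mice. It was at 5.69, 4.37 and 10.1 CPM in 7 d KO libraries, against 16.5, 15.9, 13.8 and 11.9 CPM in naive KO libraries, with no overlap. It was at 13.1, 13.3 and 8.85 CPM in 7 d WT libraries, against 12.1, 14.8, 17.2 and 13.6 CPM in naive WT libraries, and here the ranges overlapped. In KO mice Kcnk18 fell by 1.11 ± 0.27 (log2, SE; 0.463-fold, edgeR adjusted p = 0.0127). In WT mice the change was -0.30 ± 0.26 (SE; edgeR adjusted p = 0.629). The difference between the KO and the WT response was -0.82 ± 0.37 (SE), with an unadjusted p of 0.0408 and an edgeR adjusted p of 0.948, and ran from -1.23 (without ko_426_7d) to -0.59 (without ko_422_7d), so a different response of KO and WT mice was not shown. The call in KO mice was lost without ko_420__7d (-1.0, adjusted p = 0.0508), without ko_422_7d (-0.88, adjusted p = 0.054), without ko_39, ko_40 and ko_422_7d together (-0.85, adjusted p = 0.133) and in a fit of the naive KO and 7 d KO groups alone (-1.08, adjusted p = 0.0548).

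At 2.5 months Kcnk18 was at 9.48, 5.03 and 9.86 CPM in KO libraries, all below the 11.9 to 16.5 CPM of naive KO libraries. The difference was -0.84 ± 0.26 on the log2 scale (SE; 0.561-fold, edgeR adjusted p = 0.0478). The call did not survive leaving out any 1 of the 7 compared libraries: the value was -0.77 without ko_35 (adjusted p = 0.104), -0.79 without ko_39 (0.101), -0.86 without ko_40 (0.0651), -0.92 without ko_95 (0.0529), -0.96 without ko_362_2_5_m (0.0566), -0.59 without ko_367_2_5_m (0.218) and -1.0 without ko_378_2_5_m (0.0689). The single WT library at 2.5 months had 8.86 CPM, below the 12.1 to 17.2 CPM of the naive WT libraries, with a difference of -0.70 ± 0.40 (SE; edgeR adjusted p = 0.246). Between 2.5 months and 7 d in KO mice Kcnk18 differed by 0.28 ± 0.29 (SE; edgeR adjusted p = 0.578), with overlapping ranges. In order of mean level Kcnk18 was highest in naive KO (14.5 ± 2.12 CPM, SD, n = 4) and naive WT (14.4 ± 2.14 CPM, SD, n = 4), followed by 7 d WT (11.7 ± 2.51 CPM, SD, n = 3), the 2.5-month WT library (8.86 CPM), 2.5-month KO (8.12 ± 2.68 CPM, SD, n = 3) and 7 d KO (6.72 ± 2.99 CPM, SD, n = 3). In this order every group's range overlapped that of its neighbour, the single WT library at 2.5 months counted as a point within the ranges on both sides of it.

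Markers of non-peptidergic and itch neurons are given beside Kcnk18. The 9 listed genes, among them Mrgprd, a receptor of non-peptidergic nociceptors, summed to 415.6 to 710 CPM in 7 d KO libraries and 608 to 903 CPM in naive KO libraries. They summed to 589 to 986 CPM in 7 d WT libraries and 896 to 1002 CPM in naive WT libraries, and to 549 to 745 CPM in 2.5-month KO libraries. Within the 7 d KO group, ko_422_7d had the lowest and ko_426_7d the highest value of both the marker sum and Kcnk18. Within the 7 d WT group the order differed: wt_409_7d had the lowest marker sum, with Kcnk18 at 13.1 CPM, and wt_416_7d had the lowest Kcnk18 level. The marker sums of 7 d and naive libraries overlapped in both genotypes. The part of these markers' cells in the Kcnk18 result was not tested.

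Kcnk1, the TWIK-1 gene, had the highest level of the members and was lower at 7 d. It was at 42.1, 41.5 and 54.3 CPM in 7 d KO libraries, against 75.5, 68.5, 51.9 and 87.0 CPM in naive KO libraries. It was at 59.7, 37.4 and 44.3 CPM in 7 d WT libraries, against 77.1, 58.0, 76.9 and 83.4 CPM in naive WT libraries. In each genotype the ranges overlapped through a single pair of libraries, ko_426_7d over ko_40 and wt_409_7d over wt_44. In KO mice Kcnk1 fell by 0.62 ± 0.18 (log2, SE; 0.65-fold, edgeR adjusted p = 0.0313). In WT mice the change was -0.65 ± 0.18 (SE; 0.638-fold, edgeR adjusted p = 0.0616). Averaged over both genotypes Kcnk1 fell by 0.63 ± 0.13 (SE; edgeR adjusted p = 0.00222), a call that held when any 1 library was left out. The call in KO mice alone was lost without ko_35 (-0.59, adjusted p = 0.0727), ko_39 (-0.64, 0.055), ko_95 (-0.50, 0.0918), ko_420__7d (-0.56, 0.0916) or ko_422_7d (-0.55, 0.100), and in a fit of those groups alone (-0.59, 0.102). In WT mice Kcnk1 passed the threshold without wt_44 (-0.75, adjusted p = 0.043), without wt_409_7d (-0.85, 0.0211), without ko_39, ko_40 and ko_422_7d (-0.65, 0.0264) and with DESeq2 (-0.64, 0.0199). Kcnk1 shares 179 exon bases with Gm45875 on the opposite strand, a gene absent from the count table. The strand setting of the counting is not given, so reads of these bases cannot be assigned with certainty.

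The later Kcnk1 values lay between. Kcnk1 was at 60.4, 61.7 and 54.1 CPM in 2.5-month KO libraries, a difference of -0.27 ± 0.18 from naive KO libraries (SE; edgeR adjusted p = 0.306), and at 53.7 CPM in the 2.5-month WT library. Its group means ran from 46.0 ± 7.19 CPM in 7 d KO (SD, n = 3) and 47.2 ± 11.4 CPM in 7 d WT (SD, n = 3), through 58.7 ± 4.06 CPM in 2.5-month KO (SD, n = 3), to 70.7 ± 14.7 CPM in naive KO (SD, n = 4) and 73.9 ± 11.0 CPM in naive WT (SD, n = 4). The ranges of each pair of neighbours in this order overlapped. Markers of large myelinated neurons summed to 4158 to 4794 CPM in 7 d KO libraries and 2733 to 5832 CPM in naive KO libraries. The 7 Schwann cell markers summed to 3034 to 4313 CPM in 7 d KO libraries and 4998 to 9480 CPM in naive KO libraries, to 2468 to 4936 CPM in 7 d WT libraries and 4062 to 11062 CPM in naive WT libraries, and to 7691 to 10539 CPM in 2.5-month KO libraries. The 10 endothelial and mural markers summed to 162 to 282 CPM in 7 d KO libraries and 334 to 505 CPM in naive KO libraries, and to 218 to 231 CPM in 7 d WT libraries and 267 to 372 CPM in naive WT libraries. The 7 d and naive ranges of both lists lay apart in KO mice, and in WT mice those of the endothelial and mural list did while the Schwann cell ranges overlapped. The part of these lists' cells in the Kcnk1 result, and in the other 7 d results, was not tested.

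Kcnk2, the TREK-1 gene, did not pass the test in any comparison. It was at 10.8, 16.1 and 12.0 CPM in 7 d KO libraries, against 13.8, 14.1, 22.6 and 16.9 CPM in naive KO libraries, and at 14.3, 22.3 and 10.5 CPM in 7 d WT libraries, against 16.9, 15.5, 12.8 and 16.6 CPM in naive WT libraries. These ranges overlapped, with differences of -0.38 ± 0.23 in KO mice (SE; edgeR adjusted p = 0.286; -0.20 without ko_40) and 0.02 ± 0.23 in WT mice (SE; edgeR adjusted p = 0.98). Kcnk2 was at 12.7 to 17.0 CPM in 2.5-month KO libraries and 14.5 CPM in the 2.5-month WT library. Kcnk2 shares 604 exon bases with A430027H14Rik on the opposite strand, which had 2 to 16 counts, and because the strand setting of the counting is not given in the sources used here, reads of the shared bases cannot be assigned with certainty.

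Kcnk3, the TASK-1 gene, was set apart by 2 libraries. It was at 14.8, 17.4 and 21.6 CPM in 7 d KO libraries, against 19.6, 20.7, 39.9 and 18.7 CPM in naive KO libraries, and at 23.8, 47.4 and 19.9 CPM in 7 d WT libraries, against 17.8, 22.7, 23.5 and 25.5 CPM in naive WT libraries. The 2 high values came from ko_40 and wt_410_7d, and the other 16 libraries lay between 14.8 and 25.5 CPM. The change at 7 d was -0.46 ± 0.29 in KO mice (SE; edgeR adjusted p = 0.29) and 0.44 ± 0.28 in WT mice (SE; edgeR adjusted p = 0.456). The difference between both responses was -0.91 ± 0.40 (SE), with an unadjusted p of 0.0367 and an edgeR adjusted p of 0.948. Without ko_40 the change in KO mice was -0.13 (adjusted p = 0.762). Without wt_410_7d the change in WT mice was -0.03 (adjusted p = 0.973), the opposite sign, and the difference between both responses was -0.43. The markers of blood vessel cells, in which TASK-1 is also known, summed to 505 CPM in ko_40, above the 334 to 360 CPM of the other naive KO libraries, and to 219 CPM in wt_410_7d, within the 218 to 231 CPM of its group. Kcnk3 shares 229 exon bases with Gm9899 on the opposite strand, which had 17 to 72 counts.

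Kcnk12 and Kcnk13, the THIK genes, moved little. Kcnk12 averaged 24.1 ± 1.36 CPM in 7 d KO (SD, n = 3) and 20.3 ± 2.77 CPM in naive KO (SD, n = 4), and 27.5 ± 5.39 CPM in 7 d WT (SD, n = 3) and 23.4 ± 0.461 CPM in naive WT (SD, n = 4). The Kcnk12 difference was 0.25 ± 0.14 in KO mice (SE; edgeR adjusted p = 0.235), 0.23 ± 0.14 in WT mice (SE; edgeR adjusted p = 0.42) and 0.24 ± 0.10 over both genotypes (SE; edgeR adjusted p = 0.0867). The value over both genotypes passed the threshold without wt_409_7d (0.32, adjusted p = 0.0216), with at least 1 CPM required in 3 libraries (0.27, 0.0486), without ko_39, ko_40 and ko_422_7d (0.32, 0.0493) and with DESeq2 (0.26, 0.0484). The single WT library at 2.5 months had the highest Kcnk12 level of all 18 libraries, 40.3 CPM, against 22.7 to 23.8 CPM in naive WT libraries. This difference of 0.79 ± 0.19 (SE; 1.72-fold, edgeR adjusted p = 0.0152) became 0.39 ± 0.24 with a gene-length correction (adjusted p = 0.33). In KO libraries at 2.5 months Kcnk12 was at 22.8 to 29.0 CPM.

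Kcnk13, known from microglia and macrophages as well as neurons, averaged 12.1 ± 0.70 CPM in 7 d KO (SD, n = 3) and 12.6 ± 2.74 CPM in naive KO (SD, n = 4), and 14.6 ± 2.83 CPM in 7 d WT (SD, n = 3) and 14.8 ± 0.967 CPM in naive WT (SD, n = 4). Its change was -0.06 ± 0.17 in KO mice (SE; edgeR adjusted p = 0.846) and -0.02 ± 0.16 in WT mice (SE; edgeR adjusted p = 0.98). The 12 listed macrophage markers summed to 218 to 602 CPM in 7 d KO libraries and 87.6 to 296 CPM in naive KO libraries. They summed to 177 to 398 CPM in 7 d WT libraries and 103 to 281 CPM in naive WT libraries. These ranges of 7 d and naive libraries overlapped in both genotypes. Kcnk13 was at 11.8 to 14.1 CPM in 2.5-month KO libraries and at 18.3 CPM in the 2.5-month WT library, the highest of all 18.

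The 7 d and 2.5-month comparisons of KO mice share their naive KO libraries, so their counts are not independent. Counted together, 3 of the 7 members passed the test between 7 d and naive KO mice, 1 higher and 2 lower, where 13.5% of the 19010 tested genes passed. Between 7 d and naive WT mice 1 of 7 passed, higher, where 3.18% of all genes passed. Averaged over both genotypes 3 of 7 passed, 1 higher and 2 lower, against 21.1% of all genes: Kcnk16 rose by 3.47 ± 0.39, and Kcnk18 fell by 0.70 ± 0.19 (SE; edgeR adjusted p = 0.0131). That Kcnk18 value was -0.57 with an adjusted p of 0.0632 without ko_39, ko_40 and ko_422_7d. At 2.5 months 1 of 7 passed in KO mice against naive KO mice (11.6% of all genes), 1 of 7 in KO mice against 7 d KO mice (6.48% of all genes), and 2 of 7 in the single WT library against naive WT mice (13.0% of all genes). The median log2 fold change of the 7 members at 7 d was -0.38 in KO mice and 0.02 in WT mice, where the medians of all tested genes were -0.0015 and -0.0047. By ranges alone, 2 of 7 members did not overlap between 7 d and naive KO libraries (22.5% of all genes), 1 of 7 between 7 d and naive WT libraries (18.9%), 1 of 7 between 2.5-month and naive KO libraries (33.5%) and 1 of 7 between 2.5-month and 7 d KO libraries (20.9%).

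**Figure D2:**
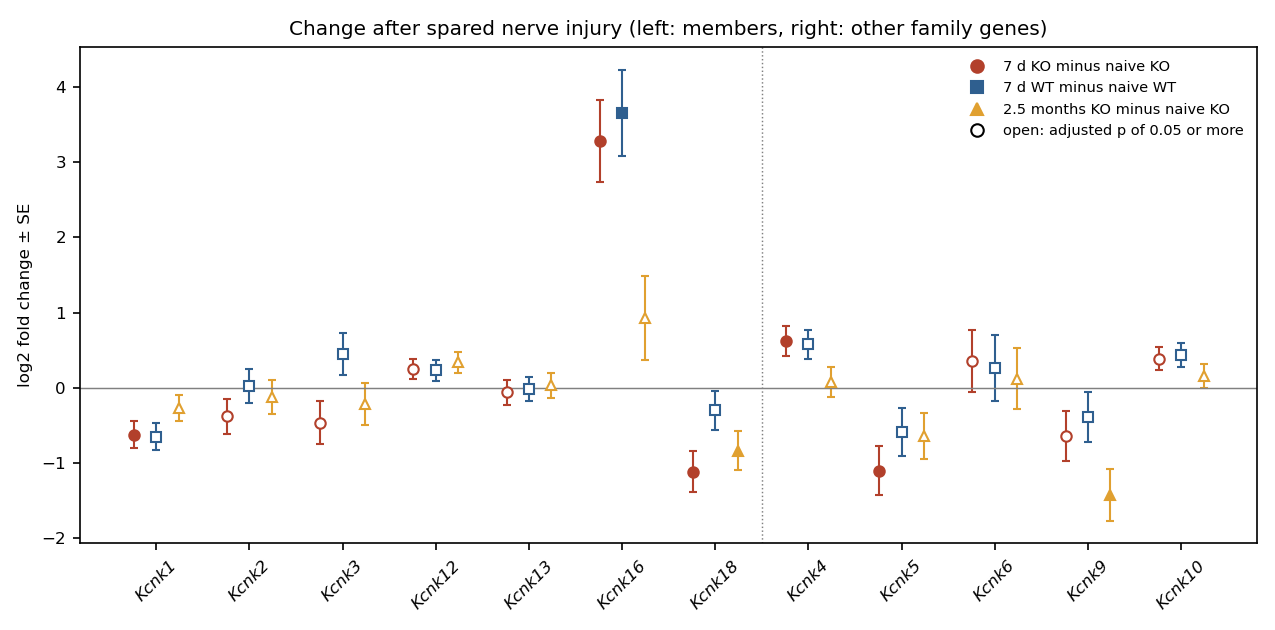
Log2 fold change with its SE for the 7 members (left of the dotted line) and the 5 other counted family genes (right) in 7 d KO over naive KO, 7 d WT over naive WT and 2.5-month KO over naive KO; filled symbols have an edgeR adjusted p under 0.05. Kcnk16 has the largest values at 7 d, 3.29 in KO and 3.66 in WT, and both values at 2.5 months in KO that passed, for Kcnk18 and Kcnk9, are negative.

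Loss of importin alpha3 gave no called difference in any member. In naive mice 0 of 7 members passed between KO and WT (0.0263% of all genes). None had an unadjusted edgeR p under 0.05, where 516 of 19010 tested genes did. The naive differences ran from -0.23 ± 0.15 for Kcnk13 to 0.82 ± 0.57 for Kcnk16 (SE). With 1 library left out the Kcnk13 value ran from -0.35 to -0.10, and the Kcnk16 value turned to -0.14 without ko_39. At 7 d 0 of 7 passed between KO and WT (0.00526% of all genes). Under an unadjusted edgeR p of 0.05 lay 1604 of 19010 tested genes, among them 2 members. These were Kcnk18, at -0.81 ± 0.29 (SE, unadjusted p = 0.0117, edgeR adjusted p = 0.562), and Kcnk3, at -0.76 ± 0.31 (SE, unadjusted p = 0.023, edgeR adjusted p = 0.571). With 1 library left out the Kcnk18 value ran from -1.22 (without ko_426_7d) to -0.58. The Kcnk3 value ran from -0.99 to -0.29 (without wt_410_7d, adjusted p = 0.937). Averaged over naive and 7 d mice 0 of 7 passed (0.0421% of all genes). Under an unadjusted edgeR p of 0.05 lay 1379 of 19010 tested genes, among them 2 members. Kcnk18 was at -0.40 ± 0.18 and, with 1 library left out, between -0.61 (without ko_426_7d) and -0.28. Kcnk13 was at -0.25 ± 0.12 and, with 1 library left out, between -0.31 and -0.17 (without wt_410_7d). For the interaction of genotype and injury 0 of 7 passed (0.0105% of all genes). Kcnk18 and Kcnk3 had an unadjusted edgeR p under 0.05, as did 704 of all 19010 tested genes. Between the KO libraries and the single WT library at 2.5 months 0 of 7 passed (0.0473% of all genes), with Kcnk12 at -0.65 ± 0.20 (SE; unadjusted p = 0.00438, edgeR adjusted p = 0.218). DESeq2 also called 0 of 7 in each of these 5 comparisons. No member's KO range lay apart from its WT range in naive mice, where 3.93% of all genes did, or at 7 d, where 8.17% did.

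Scaled by exon length, so that genes can be compared with each other, the median over all 18 libraries was 26.3 RPKM (CPM per kilobase of exon) for Kcnk1, 11.9 for Kcnk12, 5.17 for Kcnk3, 4.28 for Kcnk13, 3.45 for Kcnk18, 3.04 for Kcnk2 and 1.54 for Kcnk16. Kcnk16 had the largest ratio of its highest to its lowest library, 10.3 to 0.179 RPKM, while Kcnk13 ran from 2.89 to 5.88 RPKM. Kcnk1 ran from 16.7 to 38.9 RPKM, and its lowest library was above the highest RPKM of every member except Kcnk12, which reached 20.5 RPKM. At 7 d in KO mice Kcnk16 reached 10.3 RPKM in ko_422_7d, in which Kcnk18 was at 1.26 RPKM.

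**Figure D3:**
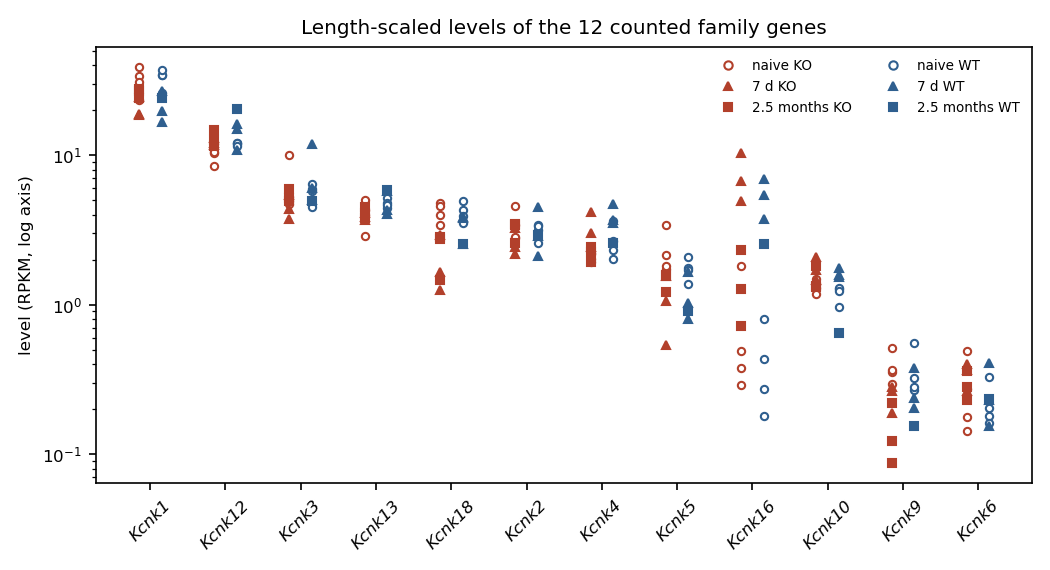
RPKM on a log axis for the 12 counted genes of the family, ordered by their median, 1 symbol per library with KO left of WT and the symbol shape giving the time. Kcnk16 spans 0.179 to 10.3 RPKM with its open naive symbols at the bottom, while Kcnk1 stays between 16.7 and 38.9 RPKM.

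The rest of the family held 7 listed genes, of which 5 were in the count table and tested. At 7 d in KO mice 1 of these 5 rose and 1 fell, where 13.5% of all tested genes passed. Kcnk4, the gene of the stretch-gated channel TRAAK, was at 13.4, 10.8 and 18.6 CPM in 7 d KO libraries, against 9.87, 9.70, 8.98 and 8.58 CPM in naive KO libraries, and rose by 0.62 ± 0.20 (SE; edgeR adjusted p = 0.0464). Kcnk5, the gene of the alkaline-activated channel TASK-2, was at 5.26, 1.83 and 3.60 CPM in 7 d KO libraries, against 5.86, 6.13, 11.5 and 7.29 CPM in naive KO libraries, and fell by 1.1 ± 0.32 (SE; edgeR adjusted p = 0.0328). In neither gene did the ranges overlap. The Kcnk4 call was lost without ko_35 (0.65, adjusted p = 0.0725), ko_39 (0.64, 0.0778), ko_40 (0.61, 0.078), ko_95 (0.59, 0.0989), ko_420__7d (0.66, 0.0685) or ko_426_7d (0.38, 0.193), and the Kcnk5 call without ko_40 (-0.84, 0.0857), ko_95 (-1.13, 0.0547), ko_422_7d (-0.79, 0.119) or ko_426_7d (-1.11, 0.0562). In WT mice 0 of 5 passed with edgeR or DESeq2. Under an unadjusted edgeR p of 0.05 lay 3196 of 19010 tested genes, among them 2 of these 5. These were Kcnk4 at 0.58 ± 0.20 (SE, edgeR adjusted p = 0.127) and Kcnk10, the TREK-2 gene, at 0.44 ± 0.16 (SE, edgeR adjusted p = 0.153). Over both genotypes, where 21.1% of all genes passed, Kcnk4 (0.60 ± 0.14, edgeR adjusted p = 0.00602) and Kcnk10 (0.42 ± 0.11, edgeR adjusted p = 0.0142) rose and Kcnk5 (-0.84 ± 0.23, edgeR adjusted p = 0.0146) fell. Without ko_39, ko_40 and ko_422_7d the Kcnk10 value over both genotypes was 0.37 (adjusted p = 0.0555) and that of Kcnk5 was -0.58 (adjusted p = 0.0507). Kcnk4 shares 587 exon bases with Catsperz on the same strand, so its counts are uncertain there.

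At 2.5 months 1 of the 5 other genes fell in KO mice, where 11.6% of all tested genes passed. Kcnk9, the TASK-3 gene, was at 1.5, 2.70 and 1.07 CPM in 2.5-month KO libraries, against 4.34, 6.27, 3.62 and 4.52 CPM in naive KO libraries, a difference of -1.42 ± 0.34 (SE; edgeR adjusted p = 0.0208). The call was lost without ko_35 (-1.46, adjusted p = 0.0508), ko_39 (-1.25, 0.0586), ko_362_2_5_m (-1.33, 0.0502), ko_367_2_5_m (-1.87, 0.0595) or ko_378_2_5_m (-1.16, 0.0766). In the single WT library at 2.5 months Kcnk10 was at 5.65 CPM, against 8.43 to 11.3 CPM in naive WT libraries, a difference of -0.88 ± 0.26 (SE; edgeR adjusted p = 0.0331) that was lost without wt_44 (-0.85, 0.061), wt_48 (-0.84, 0.0562) or wt_67 (-0.86, 0.0606) and with a gene-length correction (-0.57, 0.199). Kcnk10 was at 11.5 to 15.8 CPM in 2.5-month KO libraries. Kcnk6, the TWIK-2 gene, was at 0.595 to 2.02 CPM in all libraries and passed in no comparison.

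Of 22 genes known to bind, modify or move these channels, 2 rose and 1 fell at 7 d in KO mice (13.6% of the list, where 13.5% of all tested genes passed). S100a10, a partner of TASK-1 and other surface channels, rose by 1.11 ± 0.26 (SE; edgeR adjusted p = 0.0101), Ywhaz, a 14-3-3 protein, rose by 0.65 ± 0.20 (SE; edgeR adjusted p = 0.0374), and Bves, which binds TREK-1, fell by 0.69 ± 0.16 (SE; edgeR adjusted p = 0.00849). The calls of S100a10 and Bves held when any 1 library was left out. A single library, ko_422_7d, set much of 2 of these values: without it S100a10 was at 0.44 (adjusted p = 0.0425) and Ywhaz at 0.19 (adjusted p = 0.312), and without each of the 4 naive KO libraries the adjusted p of Ywhaz was between 0.0603 and 0.0822. Without ko_39, ko_40 and ko_422_7d together S100a10 was at 0.37 (adjusted p = 0.12), and in a fit of both groups alone its adjusted p was 0.094. In WT mice, where 3.18% of all genes passed, 0 of 22 passed with edgeR or DESeq2. Under an unadjusted edgeR p of 0.05 lay 3196 of 19010 tested genes, among them 2 of the 22. Over both genotypes, where 21.1% of all genes passed, 2 rose and 2 fell (18.2%): S100a10 by 0.73 ± 0.18, Ywhaz by 0.45 ± 0.14 (edgeR adjusted p = 0.00999 and 0.0308), Bves at -0.46 ± 0.11 and Copb1, a coat protein of transport vesicles, at -0.25 ± 0.09 (edgeR adjusted p = 0.00661 and 0.0452). With 1 library left out, adjusted p reached 0.0787 for Ywhaz and 0.113 for Copb1, and stayed at or under 0.025 for S100a10 and Bves. At 2.5 months in KO mice 2 rose and 0 fell (9.09%, against 11.6% of all genes): S100a10 by 0.95 ± 0.26 (SE; edgeR adjusted p = 0.0298) and Ywhaq, another 14-3-3 protein, by 0.50 ± 0.15 (SE; edgeR adjusted p = 0.0359). With 1 library left out, their adjusted p ranged from 0.0488 to 0.105 and from 0.0466 to 0.17. Both calls were lost with a gene-length correction (edgeR adjusted p = 0.0824 and 0.0569). In the single WT library at 2.5 months, where 13.0% of all genes passed, S100a10 rose by 1.33 ± 0.35, and Bves (-0.76 ± 0.24) and the calcineurin subunit gene Ppp3r1 (-0.51 ± 0.16) fell (edgeR adjusted p = 0.0219, 0.0438 and 0.0401); with 1 library left out, adjusted p reached 0.0431, 0.0816 and 0.0769. Of the calls in that library, those of S100a10 and Bves were lost with a gene-length correction, and those of Bves and Ppp3r1 with RLE scaling. None of the 22 passed with edgeR or DESeq2 in the comparisons of KO with WT mice, where 0 to 2 had an unadjusted edgeR p under 0.05. Of all 19010 tested genes, 516 had such a p between naive KO and WT mice and 1604 at 7 d. The calcineurin genes, whose product opens TRESK, differed at 7 d in KO mice by -0.09 ± 0.13 (Ppp3ca), -0.10 ± 0.09 (Ppp3cb) and -0.15 ± 0.10 (Ppp3r1), with edgeR adjusted p between 0.343 and 0.67.

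The genes most like each member were those with the smallest root mean square difference in log2 level relative to each gene's own mean, over 18 libraries and among 14085 genes. Because they were picked on these libraries, sharing a member's high and low libraries is part of the choice and no separate result. For Kcnk16 these were Fst, which encodes the activin-binding protein follistatin (0.41), Tnfrsf8, which encodes the receptor CD30 (0.41), and Tmem88b (0.45), where Kcnk16 itself deviated from its mean by 1.52. Sox11 and Gal, both on the injury list, ranked 4 and 5 (0.45 and 0.51) and are named because of their values. Fst was at 74.5, 76.7 and 33.9 CPM in 7 d KO libraries, against 3.59, 8.01, 4.09 and 1.71 CPM in naive KO libraries. Its highest naive KO library was ko_39, as for Kcnk16, to which it was picked as alike.

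For Kcnk18 the nearest were Tmem74 (0.20), D130043K22Rik (0.20) and Osbpl10 (0.21), where Kcnk18 itself deviated by 0.53. Scn10a, a sodium channel gene of nociceptors, and Mrgprd ranked 4 and 5 (0.21 and 0.22) and are named because of their values. Mrgprd was at 68.8, 37.5 and 102 CPM in 7 d KO libraries, against 153, 156, 142 and 112 CPM in naive KO libraries. In these genes as in Kcnk18, to which they were picked as alike, ko_422_7d was the lowest library.

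For Kcnk3 the nearest were the neuronal adhesion gene Negr1 (0.17), Bend4 (0.21) and Mpped1 (0.23), where Kcnk3 deviated by 0.38. The heat and capsaicin receptor gene Trpv1 ranked 6 (0.24) and is named because of its values: it was at 256 CPM in wt_410_7d and 157 CPM in ko_40, the libraries in which Kcnk3 was high. For Kcnk1 the nearest were Atpaf1 (0.15), Pctp (0.16) and Arhgef4 (0.17), for Kcnk2 Id4 (0.16), Minar2 (0.19) and Traf2 (0.21), for Kcnk12 H13 (0.15), Dedd2 (0.15) and Tlnrd1 (0.16), and for Kcnk13 Zdhhc14 (0.11), Stx2 (0.15) and Tlnrd1 (0.15). Tlnrd1 was thus near both THIK genes.

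**Figure D4:**
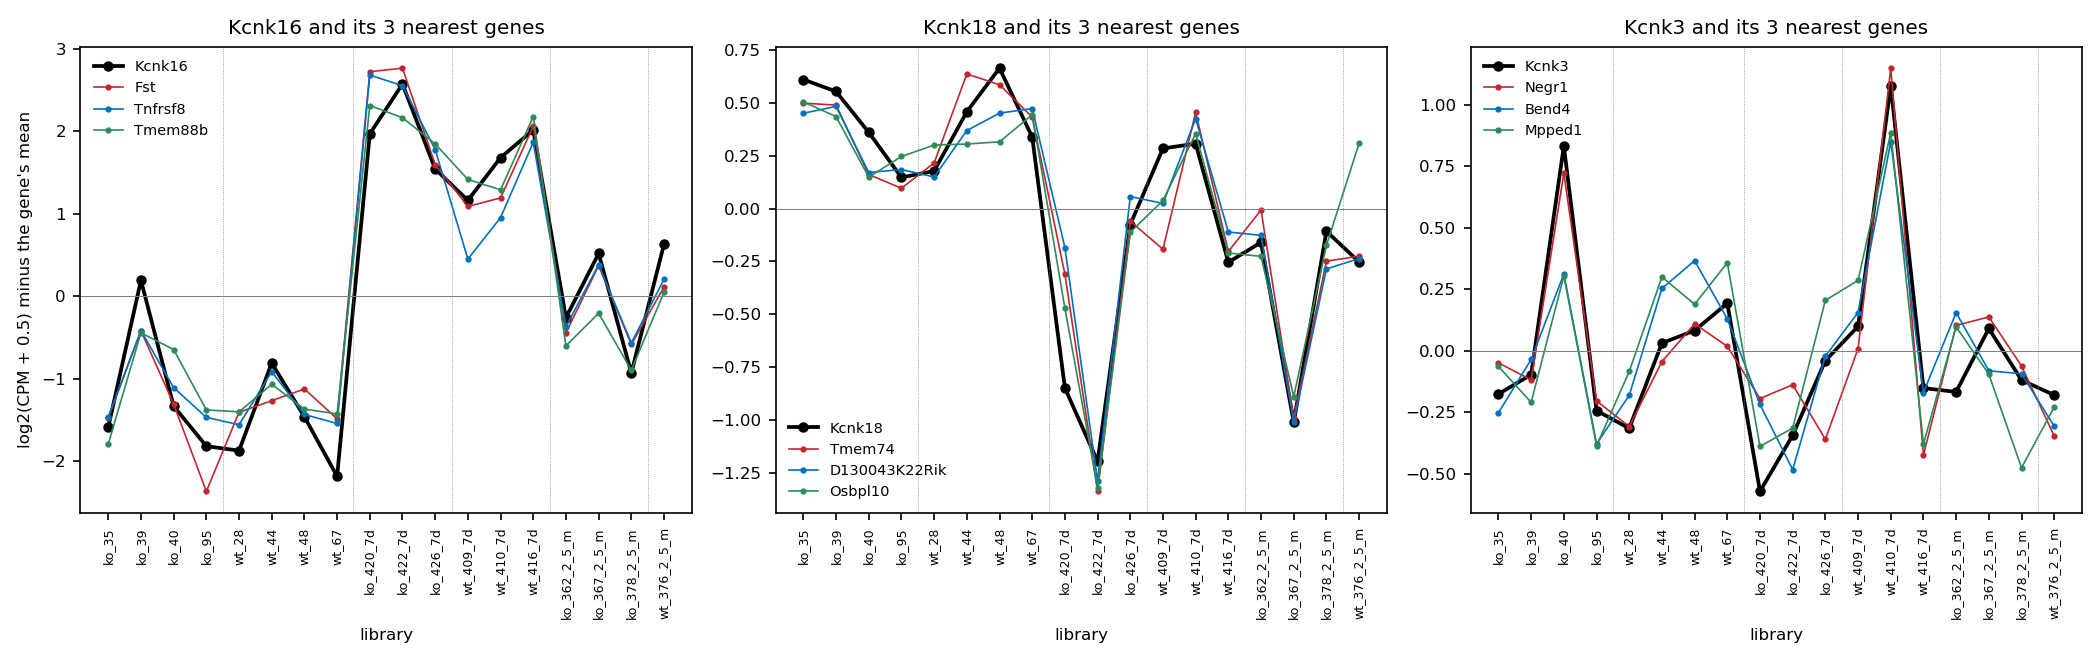
Log2(CPM + 0.5) minus each gene's mean over the 18 libraries, for Kcnk16, Kcnk18 and Kcnk3 (thick black) and the 3 nearest genes of each, with dotted lines between groups in the order naive KO, naive WT, 7 d KO, 7 d WT, 2.5-month KO, 2.5-month WT. Kcnk16 and its nearest genes step up in the 6 libraries of 7 d, Kcnk18 and its nearest genes are lowest in ko_422_7d, and Kcnk3 and its nearest genes peak in wt_410_7d. The nearest genes were picked for likeness in these same libraries.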

How the data were processed

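RNA was extracted from dorsal root ganglia and sequenced after an in-house poly(A) preparation, per the labels' protocols. The authors deposited raw read counts, whole numbers for each gene, and the deposited normalized signal is those counts divided by 1 size factor per library, as tested on the files. The submitters' processing notes name bcl2fastq, cutadapt, STAR, HTSeq 0.6.1p1, DESeq2 1.10.1 and GRCm38, with no role or order; the strand setting is not given in the sources used here.

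Libraries were grouped by the labels. Genes were kept by filterByExpr (minimum count 10, minimum total 15), leaving 19010 of 21288. The fit was edgeR 4.0.16 (R 4.3.3) quasi-likelihood across all genes with TMM scaling, 1 model of 6 groups with 12 residual degrees of freedom and 11 comparisons. A call is a Benjamini-Hochberg adjusted p under 0.05 over all genes tested; SE is the log2 fold change divided by the square root of F. The script was tested on simulated data. CPM uses TMM-scaled totals; RPKM divides it by merged exon length (GENCODE M21). Likeness used a pseudocount of 0.5 on genes averaging at least 1 CPM, without predicted gene models. Of the row identifiers, 21252 matched a symbol. Sequences are RefSeq's, GRCm38.p6. All members were named in every comparison, the other family genes that were called or above 1 CPM, up to 4 called partners per comparison, and 3 nearest genes per member; exceptions are stated. The members, gene lists and tests were chosen with earlier results of these data known. Alternatives were DESeq2 1.42.0, RLE scaling, both other filters, a gene-length offset, the compared groups alone, each library left out, 3 libraries (ko_39, ko_40, ko_422_7d) left out and the authors' normalized values.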

Additional observations from a re-analysis of the deposited data

Results flagged for a closer look

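In the naive KO group, Kcnk3 was at 39.9 CPM in ko_40 and at 18.7 to 20.7 CPM in the other 3 libraries. Kcnk16 was at 4.30 CPM in ko_39 and at 0.692 to 1.17 CPM in the other 3. Each sample lay farther from its nearest neighbour than Dixon's 95% critical value allows for 4 samples (ratios of 0.904 and 0.868 against 0.829). Chance flags about 1 in 20 groups, and 14 were examined, the 7 members in the naive KO and the naive WT libraries.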

How the results depend on the processing

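No log2 fold change of a member changed sign under any alternative while called. Between 7 d and naive KO mice, where 3 members passed, 1 passed when only the compared groups were fitted and 1 to 3 with 1 library left out. Between 7 d and naive WT mice, where 1 passed, 2 passed with DESeq2 and without ko_39, ko_40 and ko_422_7d, and 1 to 2 with 1 library left out. Between 2.5-month and naive KO mice, where 1 passed, 0 passed with no filter on low counts, 0 with the gene-length offset and 0 with any 1 library left out. Without ko_39, ko_40 and ko_422_7d the call of Kcnk18 was lost there and Kcnk16 passed in its place. Between 2.5-month and 7 d KO mice 0 to 1 passed with 1 library left out. For the single WT library at 2.5 months, where 2 passed, 0 passed with the gene-length offset and 1 to 2 with 1 library left out. The fit of only the compared groups and the fits with 1 library left out use fewer libraries; for the other settings the cause was not tested. The number of all genes called ran from 886 to 3310 (main value 2566) for 7 d KO against naive KO over the other settings, 562 to 1105 (604) for 7 d WT against naive WT, 1207 to 4097 (2196) for 2.5-month against naive KO, 285 to 5059 (1231) for 2.5-month against 7 d KO and 1435 to 4139 (2473) for the single WT library. With 1 library left out these counts ran from 1628 to 3392, 220 to 646 (lowest without wt_416_7d), 14 to 1814 (lowest without ko_367_2_5_m), 361 (without ko_420__7d) to 5131 (without ko_422_7d) and 1533 to 2320. No paired analysis was possible because the groups compared share no library number. Kcnk16 in naive libraries, with as few as 8 counts, is the value most limited by depth.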

Other observations

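The libraries in which Kcnk3 was highest shared other levels. Kcnk2 was also highest there, at 22.3 CPM in wt_410_7d and 22.6 CPM in ko_40, where the other 16 libraries had 10.5 to 17.0 CPM. Kcnk1 was at 37.4 CPM in wt_410_7d, the lowest of all 18 libraries, and at 51.9 CPM in ko_40, the lowest of the 8 naive libraries. The markers of large myelinated neurons summed to 3366 CPM in wt_410_7d and 2733 CPM in ko_40, the lowest of all 18. These libraries belong to different groups, and their likeness was noticed in the data and not tested.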
